A study of Mus musculus with 12 samples.

Results

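The genes described here are 39 interferon-induced and RNA-sensing genes of mouse keratinocytes. They were chosen by name and were found on 38 of the 21947 loci of the count table, since *Parp9* and *Dtx3l* share 1 locus. The list holds 8 sensors of RNA and other nucleic acids, 3 genes that relay the interferon signal, the feedback inhibitor *Usp18*, 9 IFIT, ISG15 and OAS genes, 9 other antiviral effectors, the 3 genes of the *Parp9*, *Dtx3l* and *Parp14* group, 2 guanylate-binding protein genes, 3 genes of antigen processing and the chemokine gene *Cxcl10*. Coordinates on mm10 place the *Ifit1* locus at chr19:34640889-34650009, *Isg15* at chr4:156199424-156200818, *Irf7* at chr7:141263183-141266424, *Eif2ak2* at chr17:78852550-78882572 and the targeted gene *Sbsn* at chr7:30751471-30756134.

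Cells detect foreign or misplaced RNA with receptors in the cytosol and in endosomes. The signal leads to secretion of type I and type III interferons, which act back on the same and on neighbouring cells through the JAK kinases and a complex that holds STAT2 and IRF9, and this complex switches on a shared set of antiviral genes. Short double-stranded RNA introduced by transfection can engage these receptors, and keratinocytes are known to carry them and to answer to interferon.

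Primary keratinocytes were isolated from newborn BALB/c mice, kept at 0.05 mM calcium and induced to differentiate at 0.12 mM calcium. Cells of the siSbsn group received 75 pmol of a pool of siRNA against *Sbsn*, the gene of suprabasin, with the HiPerfect transfection reagent, those of the siControl group received a non-targeting siRNA pool, and RNA was harvested 48 h after transfection. The no siRNA group was given no siRNA, and the sources used here do not say whether these cultures were exposed to the transfection reagent. The 12 RNA-Seq libraries, each made from 100 ng of RNA, came in 2 batches named in the sample labels. In batch 1 each of the 3 conditions had 2 libraries, numbered 1 and 2, and in batch 2 siControl had 3 libraries and siSbsn 3, with no culture free of siRNA. The methods describe replicate wells for each condition, but nothing ties the libraries to wells, litters or animals, so the p-values below measure only the spread between these libraries, which may be technical.

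Total counts lay between 27934836 and 49553923 per library, and replicate libraries differed by more than sampling noise in every group. The targeted gene *Sbsn* was at 1697 and 1231 CPM (counts scaled by TMM-normalized library size) without siRNA, 1189 and 1356 CPM in siControl and 1965 and 696 CPM in siSbsn of batch 1. In batch 2 the siControl libraries had 371, 332 and 459 CPM, and the siSbsn libraries 124, 125 and 121 CPM. The library labelled siSbsn batch 1 replicate 1 therefore held more *Sbsn* than the 4 libraries of batch 1 without the *Sbsn* siRNA. For the main fits, the median of the members in each comparison that uses that library is also given with that library left out.

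The 7 keratinocyte markers summed to between 35720 and 98005 CPM per library. The sum of 10 leukocyte markers was between 10.3 and 32.5 CPM and that of 3 endothelial markers between 0.937 and 2.54 CPM, with the Langerhans cell gene *Cd207* and the plasmacytoid dendritic cell gene *Siglech* at 0 in all 12 libraries. Fibroblast markers, which include collagen genes, summed to between 358 and 1163 CPM and melanocyte markers to between 453 and 664 CPM. The labelled cell type thus carried by far the highest marker sum, and markers of fibroblasts and melanocytes were also detected. In bulk RNA, fewer cells of a type and less RNA per cell cannot be told apart.

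The complex that holds STAT2 and IRF9 binds the interferon-stimulated response element, searched here as GAAANNGAAA on both strands of promoters of 300 bases (250 bases before and 50 after a gene start, RefSeq, GRCm38.p6). Of the 30 members with a promoter in that table, 14 held the motif (46.7%), against 3.99% of 27025 genes in all. A match is a run of letters and was not tested for binding. The stretches below, each ending at the base before the gene start, are shown because they carry the element. They belong to 6 genes whose levels are followed in the results. Each is written 5′ to 3′ on the strand of the gene, with the motif on either strand in capitals, where matches on the other strand read TTTCNNTTTC.
Isg15: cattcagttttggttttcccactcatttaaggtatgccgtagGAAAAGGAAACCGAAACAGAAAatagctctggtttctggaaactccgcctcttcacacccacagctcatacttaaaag
Ifit1: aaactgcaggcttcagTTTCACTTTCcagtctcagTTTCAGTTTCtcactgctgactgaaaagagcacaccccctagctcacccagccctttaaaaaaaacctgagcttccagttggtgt
Ifit3: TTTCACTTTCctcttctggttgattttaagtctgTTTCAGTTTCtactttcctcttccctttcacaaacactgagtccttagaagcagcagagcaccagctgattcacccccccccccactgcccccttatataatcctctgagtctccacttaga
Bst2: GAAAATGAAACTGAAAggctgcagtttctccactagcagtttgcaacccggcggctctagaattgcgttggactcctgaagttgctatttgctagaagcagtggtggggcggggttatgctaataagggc
Stat2: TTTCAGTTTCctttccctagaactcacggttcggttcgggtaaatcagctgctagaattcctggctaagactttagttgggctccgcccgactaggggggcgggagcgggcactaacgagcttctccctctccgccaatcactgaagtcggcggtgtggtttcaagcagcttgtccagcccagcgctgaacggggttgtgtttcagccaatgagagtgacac
Cxcl10: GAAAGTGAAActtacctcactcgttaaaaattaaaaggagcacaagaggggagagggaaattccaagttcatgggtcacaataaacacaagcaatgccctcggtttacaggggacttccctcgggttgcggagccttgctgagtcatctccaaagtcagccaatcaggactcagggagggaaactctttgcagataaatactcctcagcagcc

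These windows lie at chr4:156200819-156200938 (minus strand), chr19:34640769-34640888 (plus strand), chr19:34583373-34583528 (plus strand), chr8:71537473-71537602 (minus strand), chr10:128270276-128270497 (plus strand) and chr5:92348890-92349102 (minus strand). In *Isg15* 3 overlapping matches began 78, 72 and 66 bases before the start, so that the capitals form 1 run. In *Bst2* 2 overlapping matches began at 130 and 124 bases. In *Ifit1* the 2 matches were separate, at 104 and 85 bases, and in *Ifit3* at 156 and 122 bases. The single matches of *Stat2* and *Cxcl10* lay farther out, at 222 and 213 bases.

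To determine whether the list answered to transfection itself, siControl and siSbsn were compared with the no siRNA libraries in batch 1. For both siRNA groups together, edgeR's quasi-likelihood test called 0 of 38 members tested (called: beyond 0.5 in either direction on the log2 scale, with q, the p-value adjusted by Benjamini-Hochberg, below 0.05), where the whole table had 0% called. DESeq2 and limma-voom called 0 members as well. At an unadjusted p under 0.05 there was 1 member, *Samd9l*, against 0.949% of all loci in either direction. The log2-fold changes ran from -0.59 to 0.19, with 9 of the 38 above 0 and a median of -0.34, while the median of all 13176 loci tested was -0.0012. The median standard error of a member was 0.33 on the log2 scale, so differences of that size lay within the error. A single library set the sign of the median, which was 0.26, with 25 of 38 above 0, without no siRNA batch 1 replicate 1. It was -0.42 when the library labelled siSbsn batch 1 replicate 1 was not used.

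Among the effectors, *Ifit1*, whose protein binds RNA lacking the cap methylation of host messengers, was at 54.4 and 20.2 CPM without siRNA, 24.5 and 21.0 CPM in siControl and 48.6 and 20.6 CPM in siSbsn, numbers 1 and 2 in that order. *Isg15*, a ubiquitin-like protein joined to other proteins, was at 133 and 56.9 CPM, 116 and 66.2 CPM, and 148 and 56.9 CPM in the same order. *Oasl2*, of the oligoadenylate synthetase family, was at 49.8 and 16.01 CPM, 18.7 and 14.0 CPM, and 49.98 and 16.3 CPM. For these 3 genes the groups overlapped, and the difference between number 1 and number 2 within the no siRNA and siSbsn groups was larger than any difference between group means. *Ifit3*, a partner of *Ifit1*, was at 4.57 and 1.87 CPM without siRNA, 2.81 and 1.72 CPM in siControl and 3.36 and 1.57 CPM in siSbsn, with the groups again overlapping. *Bst2*, the tetherin that holds budding viruses at the cell surface, had its highest mean in siControl, at 203 and 117 CPM, against 163 and 90.6 CPM without siRNA and 165 and 85.8 CPM in siSbsn, and the groups overlapped.

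**Figure D1:**
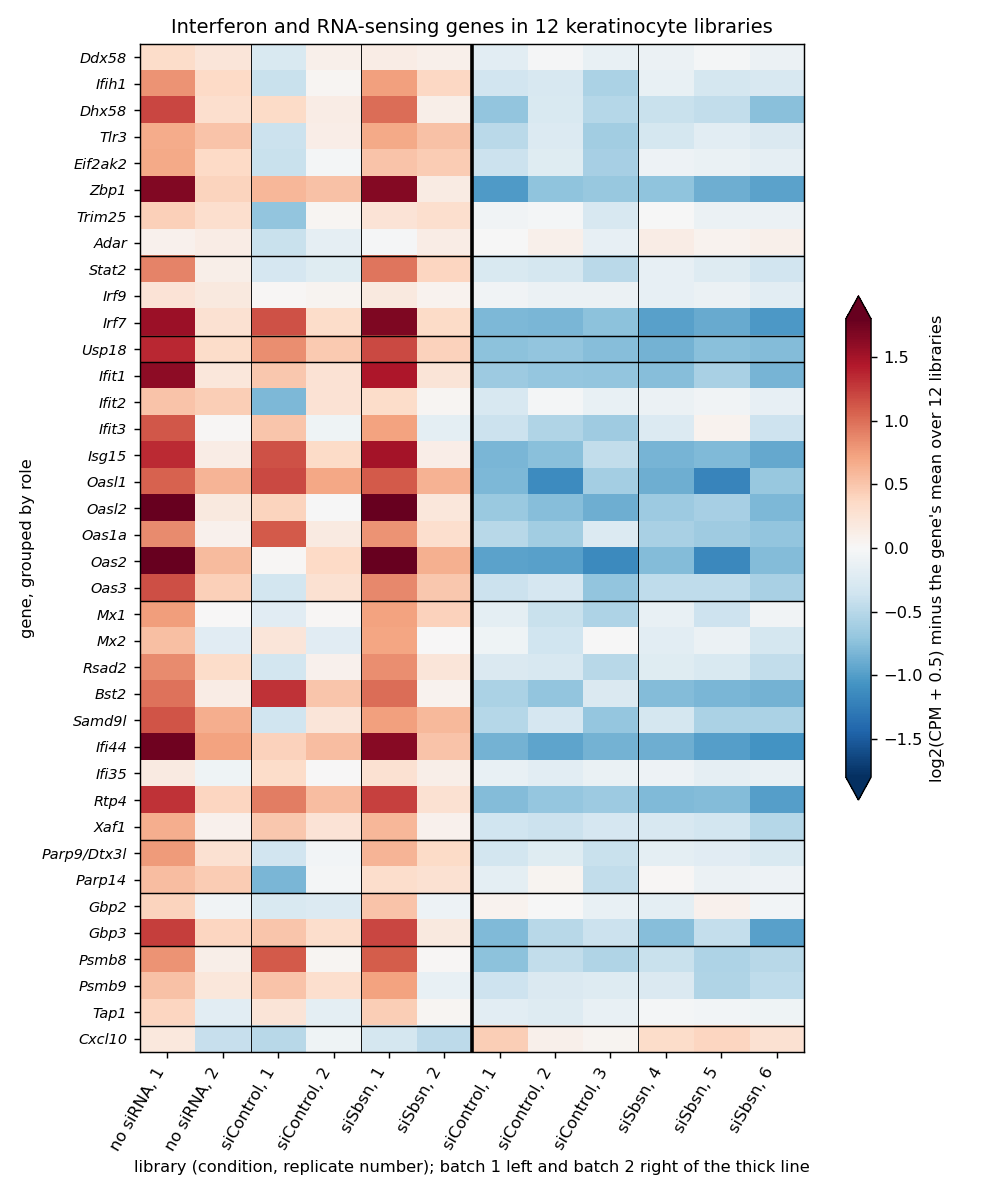
Level of each of the 38 loci (rows, grouped by role) in each of the 12 libraries (columns, condition and replicate number), as log2(CPM + 0.5) minus the mean of that gene over all libraries, with batch 1 left and batch 2 right of the thick line. The number 1 libraries without siRNA and with siSbsn in batch 1 are the reddest columns, batch 2 is blue for most genes, and *Cxcl10* in the last row runs the other way.

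With siControl taken by itself, most members had lower values than without siRNA, and 1 library decided the sign of the median. The median log2-fold change was -0.47 (all loci tested 0.0034) with 7 of 38 above 0. Without no siRNA batch 1 replicate 1 it was 0.0053, with 19 of 38 above 0 and 0 members at an unadjusted p under 0.05 from edgeR. edgeR and limma-voom called 0 members (0% of all loci). DESeq2 called 0 members, with 26 of all 13176 loci called lower and 0 higher. In edgeR, 9 members had an unadjusted p under 0.05 and a lower value, against 7.29% of all loci, with none higher. The smallest p-values were those of *Samd9l*, an inhibitor of viral replication, at -0.94 (SE 0.27, q = 0.308 from edgeR) and *Eif2ak2*, at -0.71 (SE 0.21, q = 0.308 from edgeR). Without no siRNA batch 1 replicate 1 these 2 genes were at -0.69 and -0.55. *Bst2* at 0.38 (SE 0.44, q = 0.618 from edgeR) and *Ifi35*, whose locus also holds *Rnd2* and *Vat1*, at 0.17 (SE 0.22, q = 0.655 from edgeR) had the smallest p-values among members above 0. Both siControl libraries lay below both no siRNA libraries for 17 of the 38 members, against 27.4% of the loci that passed the filter.

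All 8 sensors were below 0 for siControl against no siRNA, 4 of them at an unadjusted p under 0.05. *Eif2ak2*, the kinase PKR that stops translation when it binds double-stranded RNA, was at 120 and 95.8 CPM without siRNA, 56.0 and 72.5 CPM in siControl and 107 and 102 CPM in siSbsn. *Tlr3*, the endosomal receptor of double-stranded RNA, was at 8.85 and 7.85 CPM, 3.999 and 5.86 CPM, and 8.94 and 7.98 CPM. *Ifih1*, the gene of MDA5, a cytosolic sensor of long double-stranded RNA, was at 80.7 and 58.6 CPM, 34.6 and 46.9 CPM, and 77.1 and 59.6 CPM. For all 3 genes both siControl libraries lay below the other 4 libraries of the batch, and siSbsn lay with the cells that had no siRNA.

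*Ddx58*, the gene of RIG-I, which senses the ends of short double-stranded RNA, was at 100 and 92.7 CPM without siRNA, 66.2 and 85.4 CPM in siControl and 88.2 and 85.6 CPM in siSbsn. Here siSbsn replicate 2 and siControl replicate 2 were nearly equal, and all 4 siRNA libraries lay below both no siRNA libraries. *Adar*, which edits adenosines in double-stranded RNA and shares its locus with *Chrnb2*, was at 162 and 169 CPM, 117 and 137 CPM, and 151 and 168 CPM. *Dhx58*, a regulator of RIG-I and MDA5, was at 8.11 and 4.13 CPM, 4.25 and 3.60 CPM, and 7.03 and 3.52 CPM. *Zbp1*, a sensor of Z-form nucleic acid, was at 7.31 and 2.76 CPM, 3.21 and 3.03 CPM, and 7.24 and 2.22 CPM, so that for both of these genes number 2 of every condition was near the siControl level.

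Of the comparisons with no siRNA, that of siSbsn had the median nearest to 0. edgeR called 0 of 38 members (0% of all loci), DESeq2 and limma-voom called 0, and 0 members had an unadjusted p under 0.05, against 0.175% of all loci in either direction. The median was -0.05 (all loci 0.00025), 14 members were above 0, and the range was -0.48 to 0.41. *Cxcl10*, a chemokine that attracts T cells, had the smallest p among the lower members, at -0.48 (SE 0.45, q = 1.00 from edgeR), followed by *Samd9l* at -0.25 (SE 0.27). On the higher side stood *Ifi35* at 0.15 (SE 0.22) and *Oas2* at 0.41 (SE 0.68), both with q = 1.00 from edgeR. The median was 0.33 without no siRNA batch 1 replicate 1 and -0.34 when the library labelled siSbsn batch 1 replicate 1 was dropped, so a single library set its sign.

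**Figure D2:**
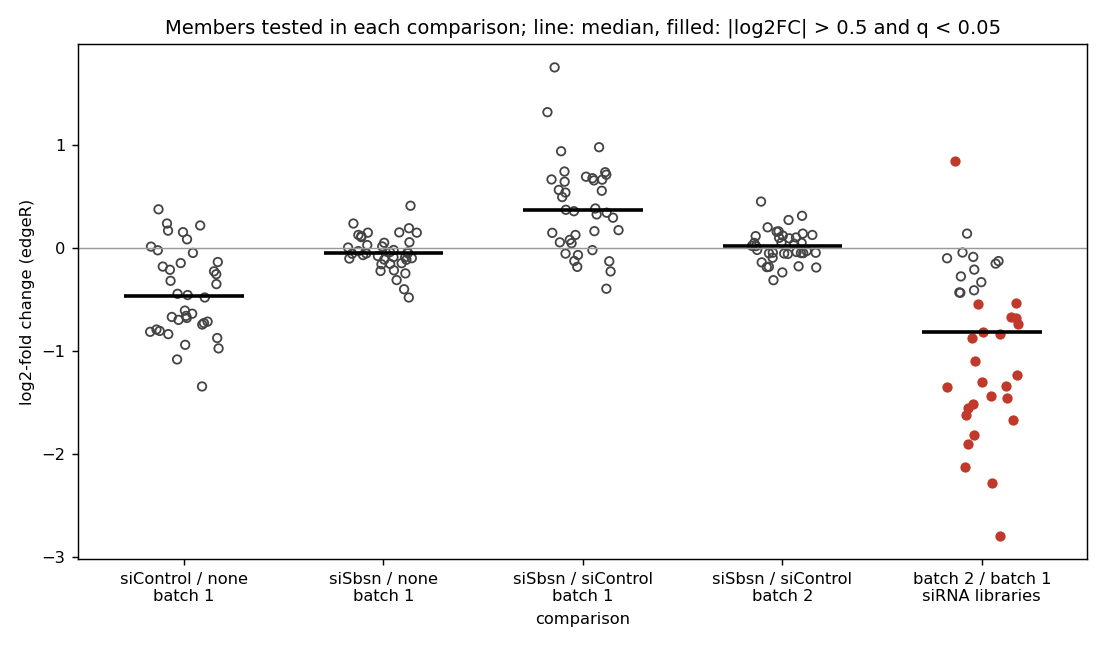
Log2-fold change (vertical axis, edgeR) of each member tested in 5 comparisons, with points spread sideways for legibility, the median as a line, and filled points for members called. The medians from left to right are -0.47, -0.05, 0.37, 0.02 and -0.82, and filled points appear in the comparison of the batches alone.

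The study used the knockdown, beside other evidence, to examine the role of *Sbsn* in epidermal differentiation. Mean *Sbsn* in siSbsn was 105% of siControl in batch 1 and 31.8% in batch 2. The list was also compared between siSbsn and siControl. In batch 1 the median was 0.37 (all loci -0.0068), and 30 of 38 members were above 0. edgeR and limma-voom called 0 members (0% of all loci). DESeq2 called 0 members, with 137 of all 13176 loci called higher and 31 lower. In edgeR, 8 members had an unadjusted p under 0.05 and a higher value, against 7.52% of all loci. They were led by *Eif2ak2* at 0.67 (SE 0.21, q = 0.309 from edgeR) and *Stat2* at 0.94 (SE 0.32, q = 0.309 from edgeR). *Bst2* at -0.39 (SE 0.44) and *Cxcl10* at -0.23 (SE 0.46) stood on the lower side. Both siSbsn libraries lay above both siControl libraries for 16 of the 38 members, against 25.3% of the loci that passed the filter. The median was -0.04 when the library labelled siSbsn batch 1 replicate 1 was left out, with 17 of 38 above 0 and 0 members at an unadjusted p under 0.05 from edgeR. Without siControl batch 1 replicate 2, which leaves siControl replicate 1 alone in its group, edgeR called 4 of 38 members higher, *Eif2ak2*, *Parp14*, *Tlr3* and *Trim25*, against 8.39% of all loci called higher in that fit.

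*Stat2*, a subunit of the interferon-activated complex, was at 91.1 and 52.5 CPM without siRNA, 39.3 and 41.7 CPM in siControl and 95.8 and 63.8 CPM in siSbsn of batch 1. Both siControl libraries were the lowest of the 6. *Irf9*, the DNA-binding subunit of the same complex, was at 122 and 116 CPM, 104 and 106 CPM, and 116 and 107 CPM, and stayed within a narrow range. *Irf7*, the factor that amplifies interferon production, was at 88.7 and 36.5 CPM, 67.2 and 38.1 CPM, and 97.7 and 38.4 CPM. For *Irf7* the 3 number 1 libraries were high and the 3 number 2 libraries low, whatever the condition.

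Batch 2 gave a tighter comparison, with a median standard error of 0.097 for a member. The median log2-fold change of the 37 members tested was 0.02 (all 12924 loci tested -0.0072), 19 were above 0 and the range was -0.31 to 0.45. edgeR called 0 members, where 0.00774% of all loci were called, namely *Sbsn* alone. DESeq2 called 0 members, with 1 of all loci called higher and 6 lower, and limma-voom 0 members, with 1 of all loci called lower. *Sbsn* was at -1.64 (SE 0.10, q = 0.00056 from edgeR), a call that was lost when all 12 libraries were fitted together (q = 1.00 from edgeR). At an unadjusted p under 0.05, 2 members were higher, against 4.51% of all loci, and 2 were lower, against 5.69%. The higher members were *Eif2ak2* at 0.27 (SE 0.10, q = 0.462 from edgeR) and *Tap1*, which carries peptides to class I molecules, at 0.14 (SE 0.06, q = 0.483 from edgeR). The lower members were *Bst2* at -0.31 (SE 0.10, q = 0.435 from edgeR) and *Irf7* at -0.18 (SE 0.07, q = 0.483 from edgeR). With each library left out, *Eif2ak2* lay between 0.17 and 0.38 and *Bst2* between -0.39 and -0.19. For both genes the end nearest to 0 came without siControl batch 2 replicate 3. *Tap1* lay between 0.13 and 0.16 and *Irf7* between -0.22 and -0.15.

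In siControl and siSbsn of batch 2, *Eif2ak2* was at 56.8, 63.7 and 48.9 CPM and at 69.5, 68.5 and 66.2 CPM. *Tap1* was at 36.0, 34.9 and 37.4 CPM and at 40.1, 39.7 and 39.0 CPM, so for both genes the siSbsn libraries were all above the siControl libraries. *Bst2* had 55.5, 50.3 and 68.5 CPM against 47.8, 46.3 and 45.4 CPM. *Irf7* was at 17.0, 16.9 and 17.9 CPM and at 15.0, 15.9 and 14.5 CPM, with no overlap for either gene, siSbsn being the lower group. In all, siSbsn lay wholly above siControl for 3 of the 38 members (9.15% of the loci that passed the filter) and wholly below for 2 (8.97%).

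**Figure D3:**
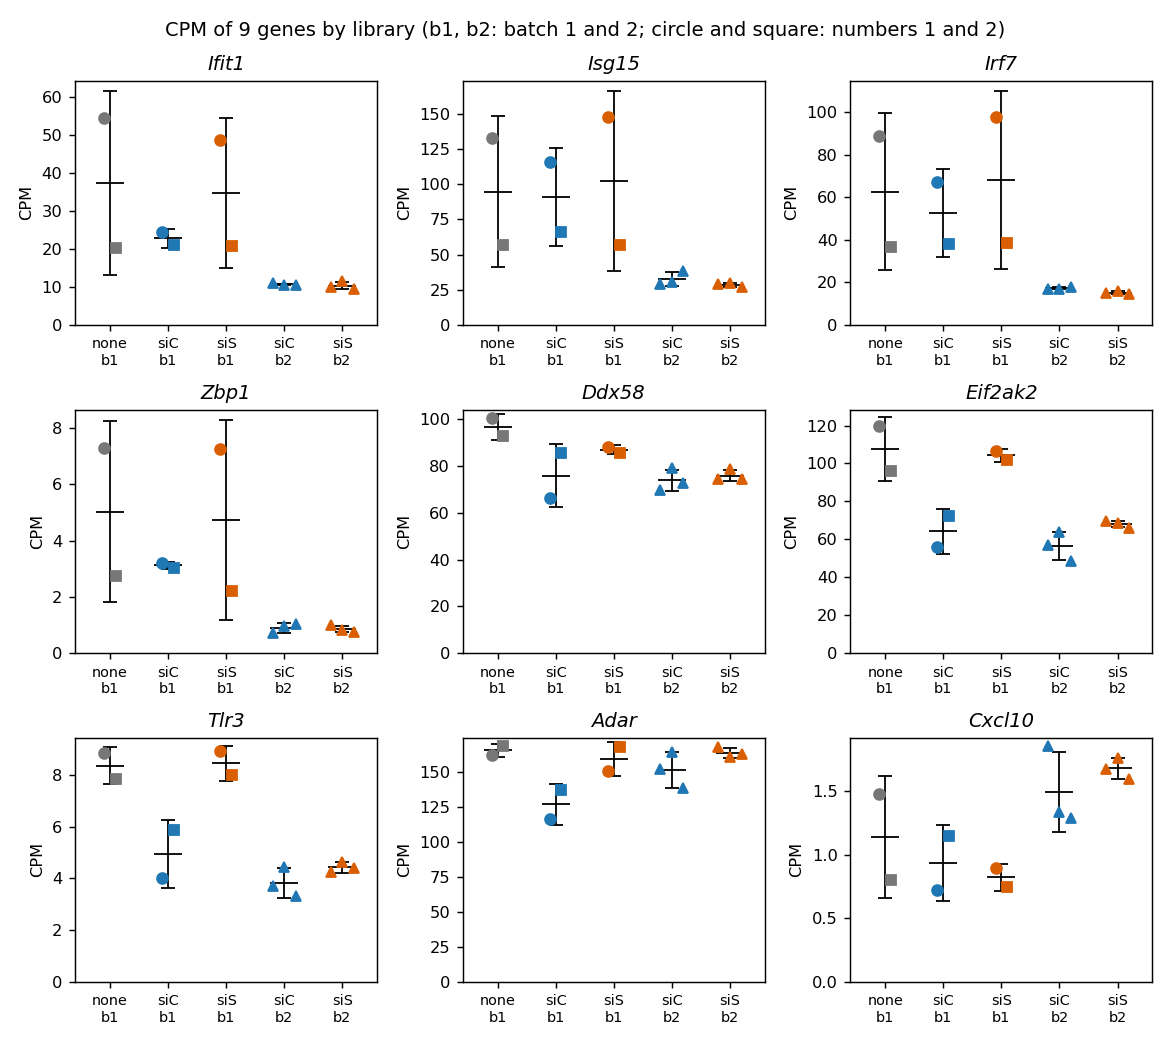
CPM (vertical axes, from 0) of 9 members in the 5 groups, with 1 point per library, circles and squares for numbers 1 and 2 of batch 1, triangles for batch 2, and the mean with its SD over 2 or 3 libraries. *Ifit1*, *Isg15*, *Irf7* and *Zbp1* split by replicate number in batch 1, though *Ifit1* and *Zbp1* hardly do so in siControl. These genes are low in batch 2, *Eif2ak2* and *Tlr3* are low in siControl of batch 1, and *Cxcl10* is higher in batch 2.

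With both batches in one model, the median was 0.19 (all 12857 loci tested 0.0055) and 30 of 37 members were above 0. edgeR and limma-voom called 0 members (0% of all loci). DESeq2 called 0 members, with 51 of all 12857 loci called higher and 42 lower. In edgeR, 7 members had an unadjusted p under 0.05 and a higher value, against 9.68% of all loci. The smallest q of a member from DESeq2 was 0.038, below 0.05, but the change of that member did not pass 0.5. *Eif2ak2* was at 0.45 (SE 0.12, q = 0.254 from edgeR), higher in siSbsn in both batches. *Tlr3* was at 0.44 (SE 0.16, q = 0.254 from edgeR), *Bst2* at -0.33 (SE 0.19) and *Oas1a* at -0.17 (SE 0.18). Leaving out the library labelled siSbsn batch 1 replicate 1 gave a median of 0.04, with 20 of 37 above 0.

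The difference between the 2 batches in the effect of siSbsn (batch 2 less batch 1), tested as an interaction, had a median of -0.45 over the members (all loci -0.024). edgeR and limma-voom called 0 of 37 members (0% of all loci). DESeq2 called 0 members, with 52 of all 12857 loci called at a positive value and 156 at a negative one. In edgeR, 5 members had an unadjusted p under 0.05 and a negative value, against 7.72% of all loci. *Stat2* was at -0.85 (SE 0.23, q = 0.265 from edgeR) and the *Parp9* and *Dtx3l* locus at -0.57 (SE 0.18, q = 0.276 from edgeR), while *Cxcl10* was at 0.38 (SE 0.38) and *Ifit3* at 0.36 (SE 0.50). Dropping the library labelled siSbsn batch 1 replicate 1 gave 0.07. edgeR called 10 of 37 members at a negative value without siControl batch 1 replicate 2 (20.2% of all loci) and 5 of 37 without siSbsn batch 1 replicate 2 (2.72% of all loci), each time with 1 library left in a group, which is then assumed to vary like the others.

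The clearest difference in the list was between the batches. In the 10 siRNA libraries, the batch term of the same model was called for 24 of 37 members at a lower level in batch 2, against 21.3% of all loci, and for 1 member, *Cxcl10*, at a higher level, against 16.4% of all loci. The median of the members was -0.82 and that of all loci -0.022, and 35 of the 37 were below 0. With the library labelled siSbsn batch 1 replicate 1 not used, 20 members were called lower, against 18.1% of all loci, and the median was -0.62. Each side is 1 batch, so whatever else differed between the batches cannot be told apart from it. In all 6 libraries of batch 1, the no siRNA cultures included, the level was above that of all 6 libraries of batch 2 for 19 of the 38 members, against 16.4% of the loci that passed the filter.

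The IFIT, ISG15 and OAS genes were lowest relative to batch 1, with 8 of 9 called lower, against 21.3% of all loci. *Oas2*, which makes the messenger that activates RNase L, was at -2.80 (SE 0.42, q = 0.00043 from edgeR) and *Oasl1* at -2.29 (SE 0.21, q = 2.4e-05 from edgeR). *Ifit1* was at 10.9, 10.5 and 10.5 CPM in siControl and 9.99, 11.4 and 9.51 CPM in siSbsn of batch 2, and in siControl its batch 1 mean was 2.14 times as high. *Isg15* was at 29.1, 30.7 and 38.1 CPM and at 28.8, 29.8 and 27.1 CPM, with a siControl ratio of 2.78. For both genes every library of batch 1 lay above every library of batch 2. *Oasl2* lay between 7.38 and 9.15 CPM in batch 2, also below all of batch 1. *Ifit3* lay between 1.00 and 1.93 CPM and overlapped batch 1, and *Ifit2*, at -0.15 on the log2 scale in the fit, was the gene of the group that was not called.

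Among the relay genes *Irf7* was at -1.90 (SE 0.24, q = 0.00018 from edgeR), with a siControl ratio of 3.05. *Stat2* was called too, but its siControl ratio was 1.07 and its siSbsn ratio 1.93. Its siControl libraries of batch 2, at 40.3, 39.0 and 34.9 CPM, overlapped the 39.3 and 41.7 CPM of batch 1. *Irf9* stayed between 89.5 and 98.1 CPM in batch 2, below batch 1 yet short of the threshold of 0.5. The feedback inhibitor *Usp18*, a protease that removes ISG15 and blocks the receptor, was at -1.55 (SE 0.14, q = 2.1e-05 from edgeR) and lay between 21.3 and 23.6 CPM in batch 2, against 48.9 to 100 CPM in batch 1. Of the other antiviral effectors 6 of 8 tested were called lower (21.3% of all loci), with *Ifi44* at -1.82 (SE 0.21, q = 0.00010 from edgeR). *Bst2*, given above, lay below all of batch 1 as well. *Mx1* had between 2 and 38 counts per library and was left out of this fit by the filter on low counts.

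The sensors were split. *Zbp1* was at -2.13 (SE 0.31, q = 0.00034 from edgeR), with 0.706, 0.983 and 1.03 CPM in siControl and 0.991, 0.829 and 0.760 CPM in siSbsn of batch 2. *Dhx58*, *Tlr3* and *Ifih1* were called lower too, *Dhx58* with 1.73 to 2.60 CPM, *Tlr3* with 3.32 to 4.63 CPM and *Ifih1* with 30.8 to 41.9 CPM in batch 2. *Tlr3* and *Ifih1* overlapped batch 1, where siControl replicate 1 had 3.999 and 34.6 CPM. Their siControl ratios were 1.29 and 1.17. *Ddx58* lay between 69.8 and 78.9 CPM, *Eif2ak2* between 48.9 and 69.5 CPM and *Trim25*, the ligase that activates RIG-I, between 134 and 162 CPM, each overlapping batch 1, and these were not called. *Adar* lay between 138 and 168 CPM and its log2-fold change was 0.14 (SE 0.09, q = 0.193 from edgeR), or -0.15 with the gene-length trend removed.

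The antigen-processing genes *Psmb8* and *Psmb9*, subunits of the immunoproteasome, were called lower in batch 2, while *Tap1*, with 34.9 to 40.1 CPM, was not. *Psmb8* was at 9.65 and 5.73 CPM without siRNA, 11.996 and 5.46 CPM in siControl and 11.8 and 5.38 CPM in siSbsn of batch 1, all above the 2.98 to 3.87 CPM of batch 2. In batch 2 *Cxcl10* had 1.86, 1.34 and 1.29 CPM with siControl, then 1.67, 1.76 and 1.60 CPM with siSbsn, against 0.720 and 1.14 CPM and 0.894 and 0.747 CPM in the same groups of batch 1. Its log2-fold change was 0.84 (SE 0.19, q = 0.0045 from edgeR), opposite to the genes around it, and the no siRNA libraries, at 1.48 and 0.799 CPM, overlapped batch 2.

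Marker sums moved with the batch as well, in both directions. The leukocyte sum was between 15.6 and 32.5 CPM in batch 1 and between 10.3 and 13.1 CPM in batch 2. The 5 of the 10 markers that could be tested were all called lower in batch 2, against 21.3% of all loci. The plasmacytoid dendritic cell list summed to between 324 and 1084 CPM in batch 1 and between 214 and 300 CPM in batch 2, nearly all of it from *Ly6d*, which epithelial cells also express. The fibroblast sum was between 413 and 1163 CPM in batch 1 and between 358 and 420 CPM in batch 2, and the keratinocyte sum between 41908 and 98005 CPM and between 35720 and 47739 CPM. The melanocyte sum was higher in batch 2, between 626 and 664 CPM against 453 to 576 CPM, and the endothelial sums overlapped. The part of these markers in the level of the list was not tested.

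Within batch 1 the level of the list followed the replicate number in the no siRNA and siSbsn groups, but not in siControl. Without siRNA, 37 of 38 members were higher in number 1 than in number 2, and in siSbsn 36 of 38 were, with 36 higher in both conditions, against 40.5% of the loci that passed the filter. The median difference was 0.65 on the log2 scale without siRNA and 0.55 in siSbsn, where the corresponding values for all loci were -0.0018 and 0.0051. The highest values were 1.61 for *Oasl2* without siRNA and 1.72 for *Oas2* in siSbsn. In siControl 19 of 38 were higher in number 1, with a median of 0.03, and 19 members were higher in number 1 in all 3 conditions, against 27.7% of all loci.

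In siControl the sign of the difference went with the length of the transcript. Over the 33 members with a locus of their own, the difference between numbers 1 and 2 had a Pearson correlation of -0.76 with the log10 length of the longest annotated transcript and a Spearman correlation of -0.80, as a description of 1 pair of libraries that share depth and preparation. All 10 members over 4000 bases were lower in number 1, with a median of -0.47, and 9 of the 10 members under 2500 bases were higher, with a median of 0.54. Over the 12919 loci with a length the Spearman correlation was -0.60, so the relation was one of the whole library. In the no siRNA and siSbsn pairs the Spearman correlation over the members was -0.48 and -0.51, and the 10 long members still had medians of 0.47 and 0.26 above 0. The genes that set siControl apart from the other conditions in batch 1, such as *Eif2ak2*, *Tlr3*, *Ifih1*, *Parp14* and *Samd9l*, were among the long ones. With the gene-length trend removed, the median of the members was -0.55 for siControl against no siRNA, with 35 of 38 below 0, and 0.45 for siSbsn against siControl in batch 1, with 35 of 38 above 0. At an unadjusted p under 0.05 there were then 4 lower members in the former (4.19% of all loci) and 5 higher in the latter (6.21% of all loci).

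**Figure D4:**
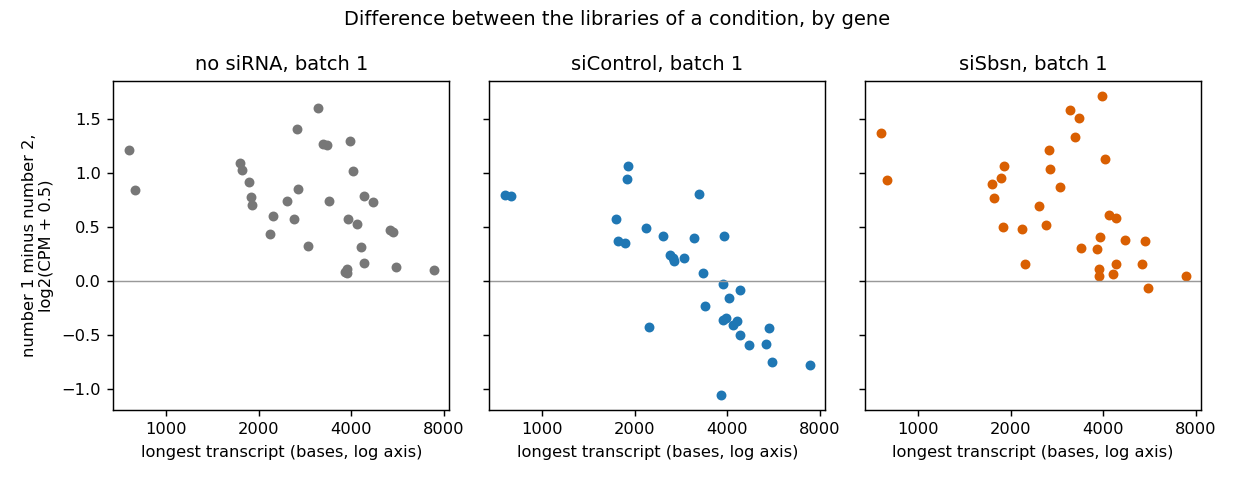
Difference between the number 1 and number 2 libraries of each batch 1 condition, as log2(CPM + 0.5), for the 33 members with a locus of their own (1 point per gene), against the length of the longest annotated transcript on a log axis. Nearly all points lie above 0 without siRNA and in siSbsn, whereas in siControl the short genes lie above 0 and the long genes below.

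Marker sums also differed between the numbers. The leukocyte sum was between 22.01 and 32.5 CPM in the number 1 libraries and between 15.6 and 17.1 CPM in the number 2 libraries. The fibroblast sum was 928 and 1163 CPM in the number 1 libraries of no siRNA and siSbsn, against 426 CPM in siControl replicate 1 and 413 to 488 CPM in the number 2 libraries. The melanocyte sum was between 546 and 576 CPM in number 1 and between 453 and 471 CPM in number 2, and the keratinocyte sum between 57197 and 98005 CPM and between 41908 and 52157 CPM. The sum of the 3 endothelial markers was low, and numbers 1 and 2 were nearly equal without siRNA (2.51 and 2.54 CPM) and in siSbsn (2.06 and 2.15 CPM). In siControl it was 0.937 and 1.97 CPM. The part of these markers in the difference was not tested.

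The rest of the pathway was described with lists of further genes. Of 21 interferon genes, 5 had a locus of their own in the table (*Ifnb1*, *Ifnk*, *Ifne*, *Ifnab* and *Ifnz*), each at 0.173 CPM or less in every library, and none passed the filter. The other ligand genes were not analysed here. All 9 receptor and kinase genes were tested. Between the batches 1 of them was called, *Ifnlr1*, a subunit of the interferon lambda receptor, higher in batch 2 (16.4% of all loci). It was at 14.6 to 16.5 CPM in batch 2 and 8.60 to 12.9 CPM in batch 1. *Ifnar1*, a subunit of the type I receptor, lay at 56.6 to 73.4 CPM in batch 1 and 71.1 to 79.3 CPM in batch 2. The median of the 9 genes between the batches was 0.05, against -0.82 for the members. With the library labelled siSbsn batch 1 replicate 1 left out, the median of the 9 genes was 0.03 and *Ifnlr1* was not called.

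Of 58 further interferon-induced genes, on 56 loci, 50 were tested between the batches. In batch 2, 24 were called lower, against 21.3% of all loci, and 2 higher, against 16.4% (median -0.67). They included *Slfn2*, of the Schlafen family, and *Tapbp*, which loads peptides onto class I molecules, both lower, and *Pml* and *Parp10*, both higher. Among the sensor adaptors, kinases and factors 2 of 15 were called lower (21.3% of all loci) and 1 higher (16.4%), with a median of 0.11. *Ticam1*, the adaptor of TLR3, was lower. Of the 13 genes of the RNA interference machinery 7 were called higher (16.4% of all loci) and 1 lower (21.3%), with a median of 0.52. *Tnrc6a* and *Tnrc6c*, partners of the Argonaute proteins, were higher. The part of transcript length in the batch differences of these lists was not tested.

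The NF-kB feedback and target genes differed from the members in the comparison of siSbsn with siControl. Over both batches, 8 of 13 tested had an unadjusted p under 0.05 and a lower value, against 9.49% of all loci, and none was higher, with a median of -0.45 against 0.19 for the members, and edgeR and limma-voom called none, while DESeq2 called 2 lower, *Cxcl1* and *Ccl20* (0.327% of all loci). With the library labelled siSbsn batch 1 replicate 1 left out, the median was -0.33. *Cxcl1*, a chemokine for neutrophils, was at 5.94 and 14.5 CPM in siControl and 2.37 and 3.54 CPM in siSbsn of batch 1, and at 3.76, 4.86 and 5.51 CPM and 2.39, 2.21 and 3.20 CPM in batch 2. *Ccl20*, a chemokine for dendritic and T cells, was at 5.51 and 9.58 CPM and 1.79 and 3.21 CPM, and at 2.69, 3.78 and 5.99 CPM and 1.77, 2.42 and 2.54 CPM. For both genes every siSbsn library lay below every siControl library of its batch. In the no siRNA libraries, *Cxcl1* was at 3.54 and 8.85 CPM and *Ccl20* at 2.27 and 6.37 CPM, each value lying between the siSbsn and siControl libraries of the same number.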

How the data were processed

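RNA-Seq was performed by the authors on 12 libraries of mouse keratinocytes. Per the labels and the methods, reads were aligned to mm10 with STAR, and the authors deposited raw counts of uniquely aligned reads per UCSC KnownGene locus, not normalized. The sources used here do not say whether counting used strand, and 5 member loci join overlapping genes, whose reads cannot be told apart.

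Members, lists and the named genes were chosen with earlier results of these data known. Named were *Sbsn*, the main sensors, relay genes and effectors, up to 5 called members in each direction, and the 2 members with the smallest p in each direction per comparison. Loci joined by commas were left out. For 8 members such rows existed, with at most 20 counts in a library. The counts were scaled by TMM, and edgeR 4.0.16 (R 4.3.3) tested them by quasi-likelihood after filterByExpr by treatment, within batch 1, within batch 2, and with batch as a term over both. The comparison of the batches was added after the data were seen. Self-tests on simulated counts were run. CPM values used all 12 libraries, and 0.5 was added before log2. The alternatives were DESeq2 size factors, no filter, DESeq2 1.42.0, limma-voom 3.58.1, removal of the gene-length trend, a replicate block, all 12 libraries, other sample sets and leaving out each library. Lengths are those of the longest GENCODE transcript. The tested member with the fewest reads, *Mx1*, passed the filter in batch 1 alone, with 6 to 38 counts per library.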

Additional observations from a re-analysis of the deposited data

How the results depend on the processing

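The counts of members called and the median log2-fold changes were recomputed under each alternative. Without the filter on low counts edgeR called 2 members for siControl against no siRNA (*Oas2* and *Samd9l*, lower, as were 3.06% of all loci) and 2 for siSbsn against siControl in batch 1 (*Oas2* and *Stat2*, higher, as were 3.29% of all loci). With each library left out in turn, the number called lay between 0 and 6 for siControl against no siRNA, 0 and 4 for siSbsn against siControl in batch 1, 0 and 10 for the interaction and 21 and 28 for the batches. The 6 members were *Eif2ak2*, *Ifit2*, *Parp14*, *Samd9l*, *Tlr3* and *Trim25*, without siControl batch 1 replicate 2, which leaves the library with low long transcripts alone in its group, and 10.9% of all loci were called lower in that fit. The median lay between -0.71 and 0.0053 for siControl, -0.34 and 0.33 for siSbsn and -0.54 and 0.26 for both siRNA groups against no siRNA, the upper end each time without no siRNA batch 1 replicate 1. It lay between -0.036 and 0.69 for siSbsn against siControl in batch 1, -0.64 and 0.069 for the interaction and -0.91 and -0.62 for the batches, with the ends nearest to 0 when the library labelled siSbsn batch 1 replicate 1 was dropped. Counts of members called were 0 under every alternative for siSbsn against no siRNA, for both siRNA groups against no siRNA, and for siSbsn against siControl in batch 2 and over both batches.

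Single genes turned direction under some alternatives, and the causes were not tested. With the gene-length trend removed, *Bst2* was at -0.32 for siControl against no siRNA, -0.20 for both siRNA groups, 0.23 for siSbsn against siControl in batch 1 and 0.0010 over both batches, *Oas1a* at 0.030 over both batches and *Adar* at -0.15 between the batches. With all 12 libraries *Cxcl10* was at 0.033 for siSbsn against siControl. With each library left out, for siControl against no siRNA, *Bst2* lay between -0.11 and 0.86 and *Ifi35* between -0.036 and 0.35. For siSbsn against no siRNA, *Oas2* lay between -0.82 and 1.33, *Cxcl10* between -0.85 and 0.034 and *Samd9l* between -0.46 and 0.015. *Bst2* lay between -0.18 and 0.66 for both siRNA groups. For siSbsn against siControl in batch 1, *Bst2* lay between -0.94 and 0.089 and *Cxcl10* between -0.49 and 0.13. In the interaction *Cxcl10* lay between -0.044 and 0.66 and *Ifit3* between -0.12 and 0.96.

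The conditions of batch 1 share only the numbers 1 and 2. The deviations of the same-numbered libraries from their group means correlated over 13562 loci at 0.38, 0.80 and 0.46 for the 3 pairs of conditions, as a hint from the data and not the design. With the replicate number as a block, edgeR called 0 members in the comparisons of the treatments (0 without it), and the median was -0.41 for siControl against no siRNA, -0.28 for both siRNA groups, 0.31 for siSbsn against siControl in batch 1, 0.17 over both batches and -0.42 for the interaction. Between the batches the block gave 25 members called, 24 lower and 1 higher, against 2725 and 2304 of all 12857 loci. The block in the interaction and the comparison of the batches were chosen after seeing the data. Each batch 1 group holds 2 libraries.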
